A study of Mus musculus with 4 samples.

Results

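The AP-1 and EGR immediate early genes are 10 genes taken by name from the count table: the FOS family members *Fos*, *Fosb*, *Fosl1* and *Fosl2*, the JUN family members *Jun*, *Junb* and *Jund*, and the zinc finger genes *Egr1*, *Egr2* and *Egr3*. Each name occurred once among the 55450 genes listed, and all 10 genes were among the 16269 genes that passed edgeR's filter on low counts. They were measured by RNA-seq after depletion of ribosomal RNA in the mouse cell line MLO-Y4, which resembles osteocytes and was recorded as wild type. The loaded group was 2 cultures stretched equiaxially for 12 h at 0.5 Hz and 20% strain on silicone membranes coated with type I collagen. The unloaded group was 2 cultures kept on ordinary 6-well plates for 12 h, inside the incubator that holds the stretching device. The effect of stretch and that of the plate therefore cannot be told apart, and whether the cultures of a group were grown independently is not stated, so p-values measure the spread between these libraries.

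FOS and JUN proteins bind DNA as dimers through a basic region and a leucine zipper, and together form the transcription factor AP-1. JUN proteins can pair with each other, whereas FOS proteins need a partner such as a JUN protein. EGR proteins bind GC-rich DNA through zinc fingers. Growth factors, calcium entry and mechanical stimuli switch on *Fos* and *Egr1* within minutes through kinases and the serum response factor SRF, without new protein synthesis, and their RNAs are short-lived. *Fosl1* and *Fosl2* tend to follow later and last longer, and in bone AP-1 genes are known for their part in the formation of osteoclasts and osteoblasts. The comparison addressed here is whether the RNA of these early genes differed between stretched and unstretched cells 12 h after the start of loading.

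Promoter sequence is shown for *Fos* and *Jun*, the prototypes of the FOS and JUN families, and for *Egr2*, which had the largest fold change among the 10 genes. Windows of 250 bases before and 50 after the transcript start were taken from RefSeq (GRCm38.p6) and matched 7 of the 10 genes. *Fosl1*, *Egr1* and *Egr3* were not matched. The 120 bases before the start are printed 5′ to 3′ on the strand of the gene, and none overlaps an annotated exon. The *Egr2* start shown is one of 5 in RefSeq, at 67537869. Of its 5 windows 4 hold a CArG box, but these are not 4 separate sites. Most of these windows overlap and share the printed CCATATATGG, and the window apart from them holds CCTTTTTTGG. Capitals mark chosen motifs, with GC boxes left in lower case: TGACG, the core of the cAMP response element (CRE), and the TATA box TATAAA in *Fos*, the variant CRE TGACNTCA in *Jun*, and in *Egr2* the CArG box, the element bound by SRF, with the CRE core on each strand beside it.
Fos, chr12:85473770-85473889, plus strand: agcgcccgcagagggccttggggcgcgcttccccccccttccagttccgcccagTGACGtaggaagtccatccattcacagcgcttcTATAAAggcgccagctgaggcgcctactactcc
Jun, chr4:95052223-95052342, minus strand: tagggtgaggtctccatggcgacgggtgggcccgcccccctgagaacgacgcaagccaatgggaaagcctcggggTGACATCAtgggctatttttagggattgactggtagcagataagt
Egr2, chr10:67537749-67537868, plus strand: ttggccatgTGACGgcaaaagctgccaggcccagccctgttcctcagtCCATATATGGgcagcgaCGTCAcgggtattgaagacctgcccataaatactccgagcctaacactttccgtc

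In *Fos* the printed CRE core began 66 bases before the start and the TATA box 33 bases before it. In *Jun* the variant CRE began 45 bases before the start. In *Egr2* the CArG box began 72 bases before the start, between CRE cores at 111 and 55 bases. Motifs were searched on both strands in all 32851 RefSeq windows of 300 bases. A CArG box was found in 1.63% of all windows and, among the matched genes, in *Egr2*, which had more windows than any other. Sites more than 250 bases before a start were not searched, and *Fosl1*, *Egr1* and *Egr3* had no window. Absence of a motif here is therefore absence from these windows only. The CRE core was found in 20.8% of windows and in *Fos*, *Fosb*, *Junb* and *Egr2*, and the variant CRE, whose letters include the full CRE TGACGTCA, in 8.83% of windows and in *Jun*. The EGR site GCGNGGGCG was found in 5.55% of windows and in *Fosb* and *Fosl2*, and the TATA box in 13.6% of windows and in *Fos* and *Junb*. In *Junb* its letters began at base 1 of the RefSeq transcript. The start of *Junb* in GENCODE, 84978718 on the minus strand, lies downstream of that base, inside the window from 84978699 to 84978998. The letters therefore lie before the GENCODE start. The ETS core CCGGAA was found in 14.9% of windows and in *Egr2*, and the GC box GGGCGG, which can overlap the EGR site, in 35.7% of windows and in *Fos*, *Fosb*, *Fosl2*, *Jun* and *Egr2*. The AP-1 site TGANTCA (7.81% of windows) and the full CRE (1.79%) were not in any window of the 7 genes. The *Jund* window, 70697489 to 70697788, ended before the start of the gene in GENCODE, 70698949. The *Fosl2* window, 32136222 to 32136521, began after the start of that gene in GENCODE, 32135801. Its motifs thus lie inside the GENCODE gene. The bases at the GENCODE starts of *Jund* and *Fosl2* were therefore not searched.

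The libraries held between 28941994 and 32185693 counts, and values are given as counts and as CPM, counts divided by library sizes that were adjusted with edgeR's TMM factors. A floor of 3 counts lay between 0.0932 and 0.104 CPM and covers counting error only. Of 10 osteocyte markers, *Pdpn*, *Phex*, *Gja1* and *Col1a1* had means of at least 43.8 CPM in each group. *Mepe* had no counts, *Sost*, *Fgf23* and *Bglap* were too low to test, and *Dmp1* (12 to 14 counts per library) and *Alpl* (0 to 14) were low. Among the osteocyte markers DESeq2 called 1 higher in loaded cells at an adjusted p under 0.01, beside 1.36% of all genes. At an adjusted p under 0.05 edgeR called 1 higher, beside 0.904% of all genes in either direction. The largest log2 fold change of the list was 0.59. The summed macrophage list (5 genes) was 1631 and 1643 CPM in unloaded and 1603 and 1609 CPM in loaded cells, nearly all of it *Csf1r*, while *Ptprc* and *Adgre1* had at most 4 counts in any library. The 3 macrophage markers that could be tested were all lower in both loaded libraries, with log2 fold changes of -0.80 for *Cd68*, -0.33 for *Cd14* and -0.02 for *Csf1r*. Of these, 2 had an unadjusted p under 0.05, and neither tool called any at an adjusted p under 0.01. The endothelial and epithelial lists summed to at most 3.89 CPM and the adipocyte list to between 6.96 and 9.29 CPM, and their part in the results was not tested.

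No AP-1 or EGR gene differed between loaded and unloaded cells at the threshold used for the study, an adjusted p under 0.01. By edgeR's quasi-likelihood test 0 of the 10 genes were called higher and 0 lower, beside 0.0983% of all tested genes called (0.0123% higher and 0.0861% lower). DESeq2 called 0 of the 9 members to which it gave an adjusted p, beside 2.91% of all genes (1.36% higher and 1.55% lower). At an adjusted p under 0.05 edgeR called no member, beside 0.904% of all genes, and DESeq2 called *Fosl2*, beside 4.88% of all genes. Without adjustment, *Fosl2* (higher) and *Egr2* (lower) had an edgeR p under 0.05, beside 14.3% of all genes. The log2 fold change was positive for 5 members and negative for 5, with a median of -0.01, and the median over all tested genes was also -0.01. The CPM values of the groups did not overlap for 5 members, beside 46.6% of all tested genes. Of these, *Fosl2*, *Jun* and *Egr1* lay higher in both loaded libraries (22.1% of all tested genes did so), and *Egr2* and *Egr3* lay lower (24.5%).

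**Figure D1:**
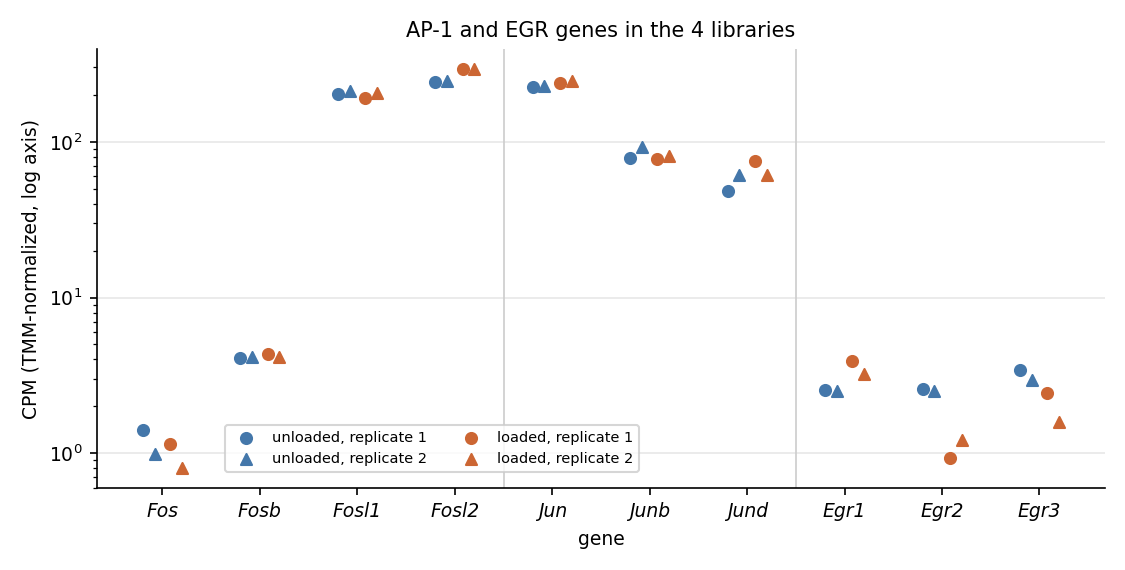
TMM-normalized CPM (log axis) of the 10 genes in each library; circles are replicate 1 and triangles replicate 2, blue unloaded and orange loaded. *Fosl1*, *Fosl2*, *Jun*, *Junb* and *Jund* lay between 48.0 and 292 CPM, and *Fos*, *Fosb* and the EGR genes between 0.805 and 4.34 CPM.

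In the FOS family, *Fosl2* (FRA-2), a FOS protein that lacks the strong activation domain of *Fos*, had the smallest p of the 10 genes. It lies on chromosome 5 from 32135801 to 32157842 on the plus strand (ENSMUSG00000029135.10). The unloaded libraries held 7076 and 7441 counts of *Fosl2*, and the loaded ones 9437 and 8703. Both loaded libraries were above both unloaded libraries, and the replicates were nearly equal after normalization. *Fosl2* averaged 244.6 ± 1.34 CPM (SD, n = 2) without and 292 ± 0.331 CPM (SD, n = 2) with load, which is 1.19-fold, or 0.26 on the log2 scale with a standard error of 0.0575. The edgeR adjusted p = 0.134 and the DESeq2 adjusted p = 0.0328. Leaving out any single library kept the difference at 0.26 on the log2 scale.

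*Fosl1* (FRA-1), the other FOS gene without a strong activation domain, lies on chromosome 19 from 5447547 to 5455946 on the plus strand. The unloaded libraries held 5926 and 6431 counts, and the loaded ones 6182 and 6155. The groups overlapped, averaging 208 ± 5.77 CPM (SD, n = 2) without and 199 ± 10.6 CPM (SD, n = 2) with load. On the log2 scale the difference was -0.06 with a standard error of 0.0699 (edgeR adjusted p = 0.738), and its 95% interval, not adjusted for the number of genes, ran from -0.23 to 0.11. Exons of *Fosl1* share 1163 bases with *Ccdc85b* on the opposite strand, for which 6320 and 3042 counts were listed without and 7120 and 6145 with load. The strandedness of the libraries is not given in the sources used here, so how reads of that stretch were divided between the genes is not known.

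*Fos* itself, on chromosome 12 from 85473890 to 85477273 on the plus strand, was low. The unloaded libraries held 41 and 30 counts of *Fos*, and the loaded ones 37 and 24. The groups overlapped, and the replicates lay far apart in both groups. The mean was 1.201 ± 0.298 CPM (SD, n = 2) without and 0.976 ± 0.241 CPM (SD, n = 2) with load, a difference of -0.30 on the log2 scale with a standard error of 0.458 (edgeR adjusted p = 0.829). The 95% interval of that difference was -1.41 to 0.82, so a difference of up to 1.77-fold higher in loaded cells was within the error. With single libraries left out the difference ran from -0.57 to -0.01. DESeq2 gave *Fos* no adjusted p. The replicates of *Fos* differed by 0.48 on the log2 scale in both groups, and counting error alone gives a standard deviation of 0.35 for the unloaded and 0.38 for the loaded pair.

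*Fosb*, on chromosome 7 from 19302696 to 19310051 on the minus strand, encodes a FOS protein with a strong activation domain. Without load it was listed at 119 and 126 counts and with load at 140 and 123, and the groups overlapped. The level was 4.13 ± 0.0426 CPM (SD, n = 2) without and 4.23 ± 0.15 CPM (SD, n = 2) with load, a difference of 0.04 on the log2 scale with a standard error of 0.219 (edgeR adjusted p = 0.964). The 95% interval of -0.50 to 0.57 was narrower than that of *Fos*.

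In the JUN family, *Jun*, which encodes c-JUN, lies on chromosome 4 from 95049034 to 95052222 on the minus strand as a single exon. The unloaded libraries held 6564 and 6958 counts of *Jun*, and the loaded ones 7667 and 7359. After normalization both loaded libraries lay slightly above the unloaded ones, averaging 242 ± 6.57 CPM (SD, n = 2) against 228 ± 2.53 CPM (SD, n = 2). This was a difference of 0.09 on the log2 scale with a standard error of 0.0613 (edgeR adjusted p = 0.572) and a 95% interval of -0.06 to 0.24. The antisense gene *Junos* shares 232 exon bases with *Jun* and had between 810 and 926 counts per library.

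*Junb*, which encodes a JUN protein of weaker activity that can restrain c-JUN, lies on chromosome 8 from 84974484 to 84978718 on the minus strand. Without load 2289 and 2808 counts were listed, and with load 2519 and 2398. On the CPM scale unloaded replicate 1 (78.8) lay between the loaded libraries (78.1 and 80.5), and unloaded replicate 2 (92.7) was higher. The difference of -0.11 on the log2 scale, with a standard error of 0.105 (edgeR adjusted p = 0.683), became 0.0073 without unloaded replicate 2, so its direction rested on that library. *Junb* shares 173 exon bases with *Prdx2* on the opposite strand, which had between 4295 and 5034 counts per library.

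*Jund*, the JUN gene that is least dependent on stimulation in many cells, lies on chromosome 8 from 70698949 to 70700616 on the plus strand. The unloaded libraries held 1395 and 1861 counts of *Jund*, and the loaded ones 2431 and 1824. Libraries of one group lay as far apart as the group means, which were 54.7 ± 9.46 CPM (SD, n = 2) without and 68.3 ± 10.001 CPM (SD, n = 2) with load. The difference on the log2 scale was 0.32 with a standard error of 0.159 (edgeR adjusted p = 0.432), and it ranged from 0.16 to 0.51 when single libraries were left out. The antisense gene *Gm11175*, which shares 877 exon bases with *Jund*, had at most 10 counts in any library.

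Among the EGR genes the direction was not the same for all members. *Egr2* (KROX20), on chromosome 10 from 67535475 to 67542188 on the plus strand, was read at 75 and 76 counts without load and at 30 and 36 counts with load. Both loaded libraries were below both unloaded libraries. The mean was 2.55 ± 0.0528 CPM (SD, n = 2) without and 1.07 ± 0.197 CPM (SD, n = 2) with load, 2.38-fold higher in unloaded cells. On the log2 scale this was -1.25 with a standard error of 0.343 and a 95% interval of -2.09 to -0.41, and it did not pass the adjustment over all genes (edgeR adjusted p = 0.187, DESeq2 adjusted p = 0.329). It ranged from -1.45 to -1.07 with each library left out in turn.

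*Egr3*, a relative of *Egr2* on chromosome 14 from 70077203 to 70082614, was read at 99 and 90 counts without load and at 79 and 47 counts with load. Both loaded libraries were below both unloaded ones, but they lay 0.61 apart on the log2 scale. The groups differed by -0.66 on the log2 scale with a standard error of 0.329 (edgeR adjusted p = 0.430), which ranged from -1.01 to -0.38 with each library left out.

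*Egr1*, the EGR gene most often followed as a marker of early signalling, lies on chromosome 18 from 34859823 to 34864984. For *Egr1* the counts without load were 74 and 76, and those with load 126 and 96. Both loaded libraries were above both unloaded libraries, opposite to *Egr2* and *Egr3*. The mean was 2.53 ± 0.0284 CPM (SD, n = 2) without and 3.56 ± 0.484 CPM (SD, n = 2) with load, a difference of 0.50 on the log2 scale with a standard error of 0.263 (edgeR adjusted p = 0.460). The 95% interval was -0.15 to 1.14, so no difference and a 2.2-fold difference both lay within it.

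**Figure D2:**
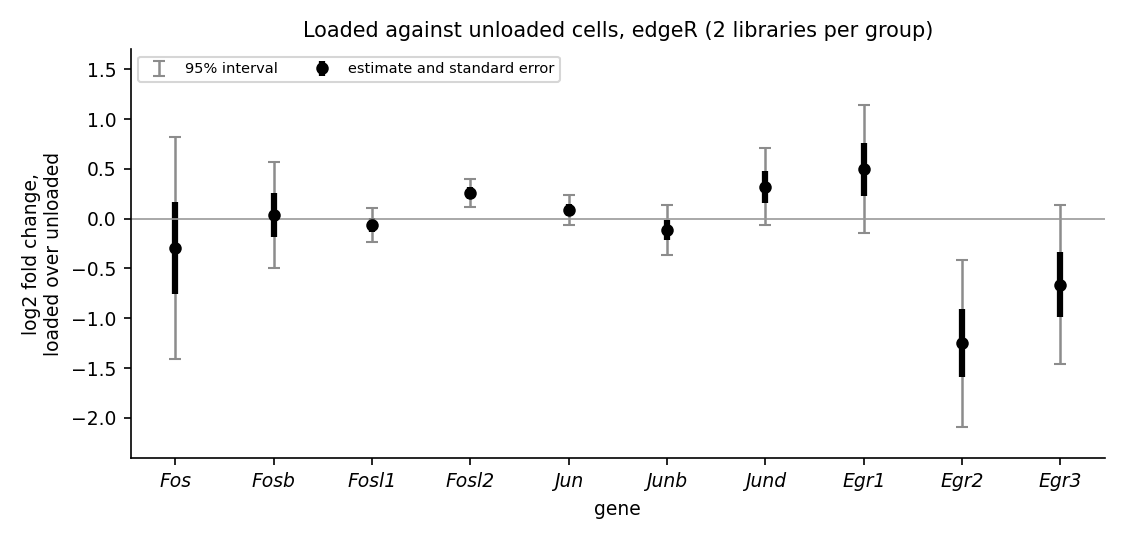
Log2 fold change of each gene, loaded over unloaded, from edgeR with 2 libraries per group; thick bars are standard errors and thin bars 95% intervals that are not adjusted for the number of genes. The interval excludes 0 for *Fosl2* (0.12 to 0.40) and *Egr2* (-2.09 to -0.41), and the adjusted p of both is above 0.1.

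Over all tested genes, the lower and upper quartiles of the log2 fold change were -0.20 and 0.16. Outside these quartiles lay *Fosl2*, *Jund* and *Egr1* above and *Fos*, *Egr2* and *Egr3* below.

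**Figure D3:**
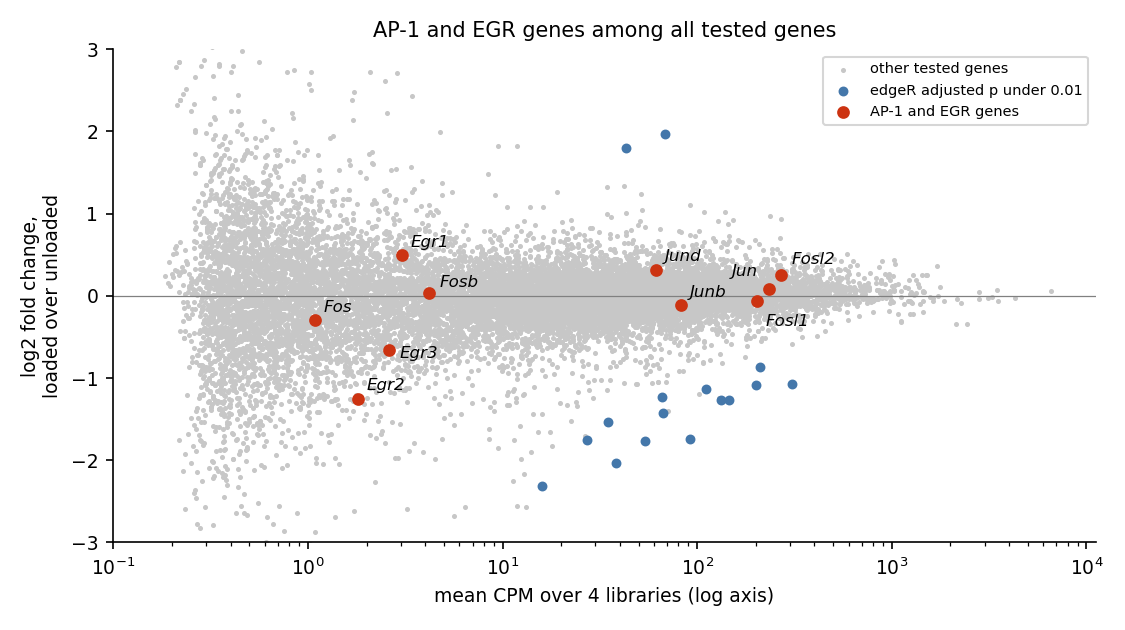
Log2 fold change (loaded over unloaded) against mean CPM (log axis) of all 16269 tested genes; red points are the AP-1 and EGR genes, blue points the 16 genes with an edgeR adjusted p under 0.01, and 58 genes lie beyond the limits of 3 on the vertical axis. The red points lie between -1.25 (*Egr2*) and 0.50 (*Egr1*).

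Levels of different genes were compared per length, as RPKM (CPM per kilobase of annotated exon). *Fosl1* was the highest, at 94.2 to 104 RPKM in the 4 libraries, above 97.4% of all tested genes. *Jun* followed at 70.9 to 77.4 RPKM. *Jund* (28.8 to 45.2 RPKM) and *Junb* (33.9 to 40.3 RPKM) overlapped, and *Fosl2* came next at 25.2 to 30.2 RPKM without reaching *Junb*. The other genes lay far below, and each overlapped its neighbours in this order: *Egr1* at 0.559 to 0.871, *Fosb* at 0.656 to 0.695, *Egr3* at 0.358 to 0.774, *Egr2* at 0.274 to 0.760 and *Fos* at 0.342 to 0.6002 RPKM. The ranges of *Fosb* and *Fos* did not overlap. *Fos* was above 15.8% of all tested genes, and the *Fosl1* level was 167 to 297 times that of *Fos*. With exon lengths from the GENCODE basic transcript set, an alternative chosen after seeing the data, *Fosl2* (41.1 RPKM) lay between *Junb* (45.6 RPKM) and *Jund* (36.9 RPKM).

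*Fosl1* was the main FOS family RNA per length in all 4 libraries. It made up 79.2% and 79.8% of the family's RPKM without load and 75.01% and 76.5% with load. Its mean share over the 4 libraries was 77.6%, and 71.9% with basic exon lengths. How reads of the stretch shared with *Ccdc85b* were divided is not known, which limits both the level and the share of *Fosl1*. *Fosl2* held 19.9% and 19.4% without and 24.05% and 22.7% with load, and *Fos* and *Fosb* together held the small remainder. *Jun* made up 48.3% to 52.9% of the JUN family RNA over the 4 libraries. The family sums were 126 to 133 RPKM for FOS and 134 to 154 RPKM for JUN.

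The EGR family summed to 2.102 and 1.97 RPKM without load and to 1.7003 and 1.43 RPKM with load. *Egr1* held 27.0% and 28.4% of it without load and 51.2% and 50.2% with load, a difference of 23.0 percentage points between the group means. The corresponding difference for *Fosl1* in the FOS family was -3.70, and that for *Jun* in the JUN family, -0.39, had no stable sign, ranging from -2.70 without unloaded replicate 2 to 1.93 without unloaded replicate 1. *Egr2* held 36.2% and 37.4% without load and 16.1% and 24.8% with load. These shares are a description over 2 libraries per group, resting on 30 to 126 counts for *Egr1* and *Egr2*, and were not tested.

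**Figure D4:**
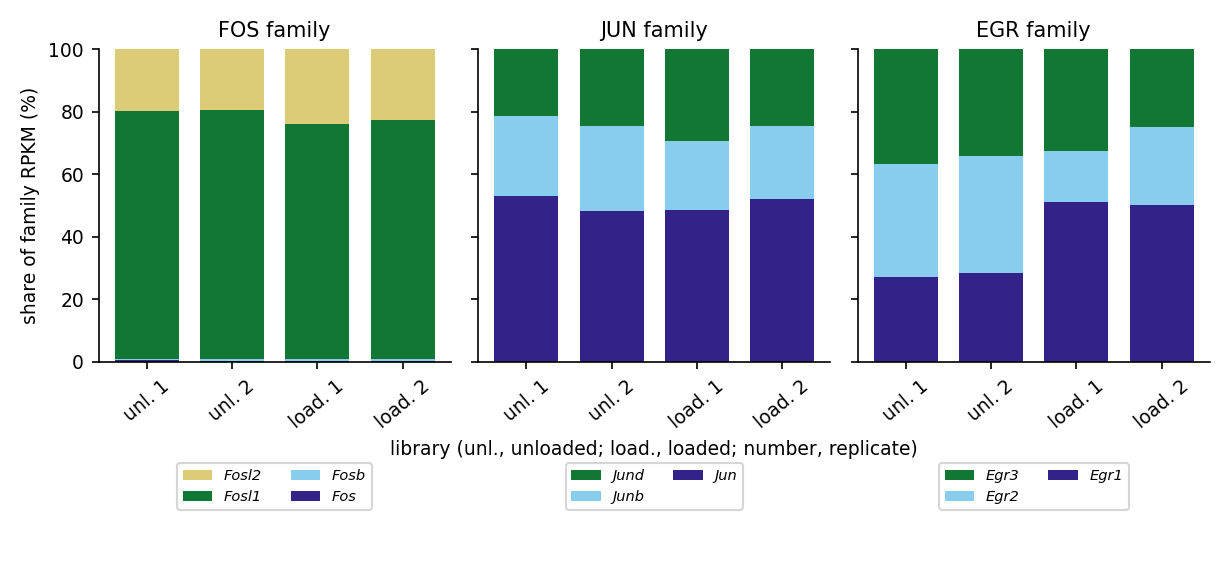
Share of each gene in the summed RPKM of its family (%), for the unloaded (unl.) and loaded (load.) libraries of replicates 1 and 2. *Fosl1* fills at least 75.01% of every FOS bar, and the *Egr1* part is 27.0% and 28.4% in unloaded and 51.2% and 50.2% in loaded libraries.

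The genes whose pattern over the 4 libraries was nearest to *Fos*, by Euclidean distance of log2 CPM values centred on their mean, were *Gm45833* (0.079), *Aldoc* (0.080) and *Trmt2b* (0.087), among 13314 genes of at least 1 CPM. The nearest to *Egr1* were *Zfand2a* (0.041), *Vps37b* (0.050) and *Tarbp2* (0.057). All these distances are below the counting error of a replicate pair. Its standard deviation on the log2 scale was 0.35 and 0.38 for *Fos* and 0.24 and 0.20 for *Egr1*. Which genes came nearest is therefore not settled by these counts, and a link between them was not tested. For *Zfand2a*, a stress-induced zinc finger gene, 1539 and 1637 counts were listed without and 2612 and 2036 with load.

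The genes around AP-1 and EGR were read from 7 lists holding 106 different genes, of which 100 were tested. None of these passed an edgeR adjusted p of 0.01, 5 were higher and 3 lower at an adjusted p under 0.05 (0.904% of all genes passed in either direction), and 40 had an unadjusted p under 0.05 (14.3% of all genes). DESeq2 called 6 of them higher and 6 lower at an adjusted p under 0.01, of 95 to which it gave one, beside 1.36% and 1.55% of all genes. Values below are log2 fold changes from edgeR, loaded over unloaded, and adjusted p-values are over all tested genes.

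Among other immediate early genes, *Rhob*, *Klf6* and *Ier3* were higher in loaded cells at an edgeR adjusted p under 0.05. Over all genes 0.904% passed that threshold in either direction. Of the 26 tested genes of this list, 16 had a positive and 10 a negative log2 fold change, with a median of 0.17. Of these, 12 had a p under 0.05 with higher values in loaded cells, beside 6.88% of all genes, and 1 with lower values, beside 7.46%. DESeq2 called 4 higher and 1 lower, beside 1.36% and 1.55% of all genes. *Rhob*, a small GTPase that acts on actin and endosomes, went from 102 and 101 CPM without to 198 and 174 CPM with load (0.87, edgeR adjusted p = 0.0197). *Klf6*, a zinc finger factor, went from 181 and 172 to 258 and 262 CPM (0.56, edgeR adjusted p = 0.0289). *Ier3*, a survival factor, went from 163 and 164 to 267 and 240.3 CPM (0.63, edgeR adjusted p = 0.0322). *Ccn1*, a matrix protein induced by SRF and YAP, differed by 0.32 (edgeR adjusted p = 0.129, DESeq2 adjusted p = 0.01). *Sik1*, a kinase that restrains CREB co-activators, went the other way, from 50.2 and 54.2 to 31.1 and 34.9 CPM (-0.66, edgeR adjusted p = 0.0663, DESeq2 adjusted p = 0.000627).

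The bZIP partners of AP-1 held no gene called by edgeR or DESeq2 among 13 tested, with a median of 0.09, and 3 were higher and 1 lower at an unadjusted p under 0.05, beside 6.88% and 7.46% of all genes. *Jdp2*, a partner of JUN that represses AP-1 sites, was at 59.6 and 63.5 CPM without and 45.3 and 47.7 CPM with load (-0.41, edgeR adjusted p = 0.145). *Batf*, a partner of JUN best known in lymphocytes, was low, at 19 and 37 counts without and 70 and 72 counts with load (1.28, edgeR adjusted p = 0.258). *Mafk* (0.24, edgeR adjusted p = 0.288), *Maff* (0.34, edgeR adjusted p = 0.336) and *Atf4* (0.12, edgeR adjusted p = 0.467) completed the 5 smallest p-values. Of the EGR relatives and co-repressors, *Egr4* had no counts, and *Nab1* (-0.06) and *Nab2* (0.07), which bind EGR proteins and limit their activity, had adjusted p-values above 0.7.

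The kinases and SRF partners upstream of the early genes were centred on 0, with a median of -0.01 over 23 tested genes. Neither tool called any of them, and 2 were higher and 2 lower at an unadjusted p under 0.05, which is near the 6.88% and 7.46% of all genes. *Map2k6*, a kinase that activates p38, was at 18.04 and 17.6 CPM without and 10.6 and 10.3 CPM with load (-0.77, edgeR adjusted p = 0.0774). *Mapk14*, which encodes p38 alpha, differed by -0.67 (edgeR adjusted p = 0.272), with its unloaded libraries at 40.05 and 64.3 CPM. *Mrtfb*, a co-activator of SRF, *Map2k3*, another kinase of p38, and *Mapk8*, which encodes JNK1, differed by 0.28, 0.28 and -0.22 (edgeR adjusted p = 0.243, 0.279 and 0.355).

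The feedback inhibitors of MAP kinases, phosphatases of the DUSP family with SPRY and SPRED proteins, had a median of 0.23 over 14 tested genes. Of these, 9 were positive and 5 negative, and 6 had an unadjusted p under 0.05 with higher values in loaded cells, beside 6.88% of all genes. No gene of this list was called by either tool. *Dusp5*, a nuclear phosphatase of ERK, was at 68.0 and 72.7 CPM without and 95.8 and 90.9 CPM with load (0.41, edgeR adjusted p = 0.127, DESeq2 adjusted p = 0.0104). *Dusp1*, itself an immediate early gene, differed by 0.32 (edgeR adjusted p = 0.219), and *Dusp8*, *Spry2* and *Dusp16* differed by 0.40, 0.42 and 0.35 (edgeR adjusted p = 0.233, 0.238 and 0.245).

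Known AP-1 target genes differed in both directions. Of 17 tested, 9 were positive and 8 negative with a median of 0.07, and DESeq2 called 2 higher and 4 lower. Over all genes DESeq2 called 1.36% and 1.55%. At an unadjusted edgeR p under 0.05, 6 were higher and 5 lower, beside 6.88% and 7.46% of all genes. *Hmox1*, which degrades heme, and *Ptgs2*, which encodes cyclooxygenase-2, were higher, with log2 fold changes of 0.93 and 0.42 (edgeR adjusted p = 0.0107 and 0.0386). *Mmp9*, a gelatinase, went from 28.6 and 27.8 CPM without to 11.8 and 11.0 CPM with load (-1.31, edgeR adjusted p = 0.0137). The collagenase *Mmp13* (-0.70, edgeR adjusted p = 0.0575), the stromelysin *Mmp10* (-0.69, edgeR adjusted p = 0.0798) and the matrix protein gene *Spp1* (-0.50, edgeR adjusted p = 0.0405) were also called lower by DESeq2. Both *Hmox1* and *Ptgs2* are targets of other factors as well, and the part of AP-1 in any of these values was not tested.

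Of the 10 known EGR target genes, all tested, 3 were positive and 7 negative, with a median of -0.17, and 4 were lower at an unadjusted p under 0.05, beside 7.46% of all genes. *Id3*, an inhibitor of basic helix-loop-helix factors, went from 47.0 and 48.6 CPM without to 21.01 and 26.2 CPM with load (-1.02, edgeR adjusted p = 0.0374), and DESeq2 called it lower. *Icam1*, an adhesion receptor, was low, at 131 and 106 counts without and 49 and 37 counts with load (-1.53, edgeR adjusted p = 0.108). *Pdgfb* (-0.44), *Fgf2* (-0.69) and *F3* (0.70) had edgeR adjusted p-values of 0.19, 0.32 and 0.35.

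**Figure D5:**
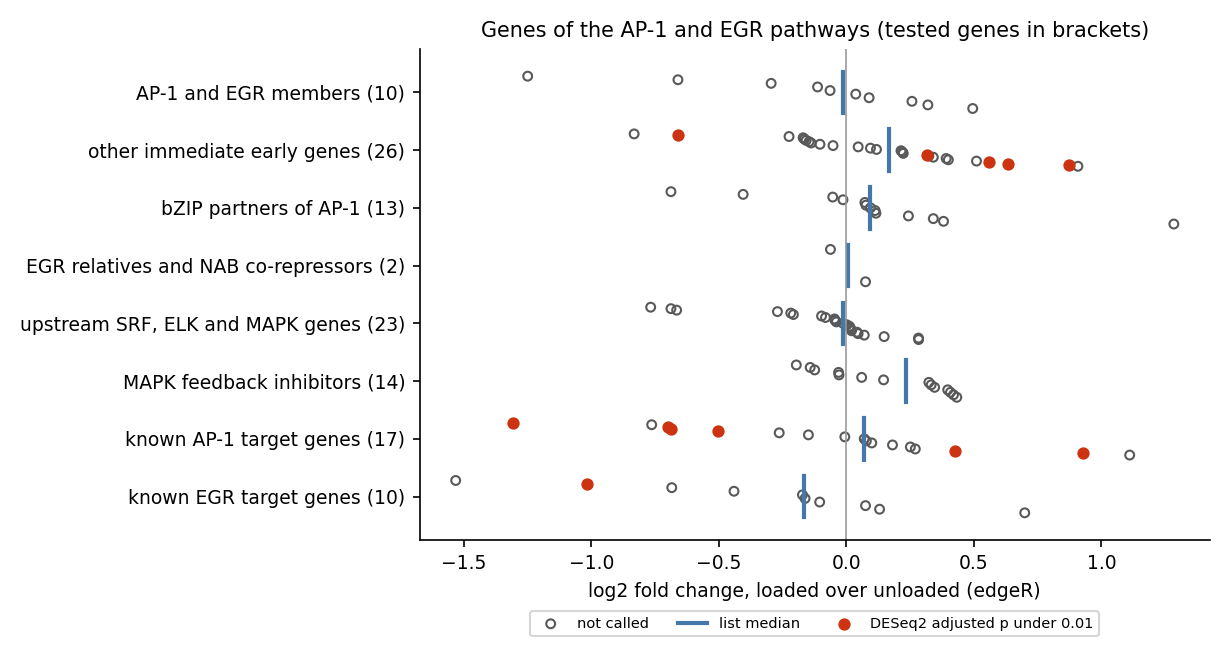
Log2 fold change (loaded over unloaded, edgeR) of every tested gene of the 8 lists, 1 point per gene, with the list median as a blue line; filled red points have a DESeq2 adjusted p under 0.01. The AP-1 and EGR list holds no filled point, and the AP-1 target list holds filled points on both sides of 0, from -1.31 to 0.93.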

How the data were processed

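Groups of 2 unloaded and 2 loaded MLO-Y4 cultures, measured by RNA-seq, were taken from the sample titles. The authors mapped filtered reads to mm10 with HISAT2 (2.1.0), assembled transcripts with StringTie (1.3.5) and deposited gene counts from prepDE, whole numbers without normalization. Strandedness and read length are not given in the sources used here. Symbols, coordinates and exon lengths came from GENCODE M21 (GRCm38), which holds all 55450 gene identifiers.

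Counts were filtered with filterByExpr (minimum count 10), normalized by TMM and tested with glmQLFit and glmQLFTest of edgeR (4.0.16) in R (4.3.3), with Benjamini-Hochberg adjustment over 16269 genes and the study's threshold of 0.01. The standard error is the log2 fold change divided by the square root of F. The authors used DESeq2, which was an alternative here (1.42.0), as were RLE and upper-quartile factors, other filters on low counts, a threshold of 0.05, the replicate number as a block and leaving out each library, where a lone library was assumed to vary like the other group. The procedure was tested on simulated data. Chi-square per degree of freedom between replicates was 17.6 and 19.0, so no library was a duplicate.

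The members and lists were chosen with earlier results of these data known, and some list genes had been reported from these libraries. Outside the members, genes are named by an adjusted p under 0.01 and otherwise at most 5 per list by smallest p. Others (*Ccdc85b*, *Junos*, *Prdx2*, *Gm11175*, *Mapk3*, *Map2k7*, *Rps6ka3*, *Creb1*) were named after their values were seen. *Atf3*, *Maff*, *Creb1*, *Dusp1* and *Nab2* are each in 2 lists.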

Additional observations from a re-analysis of the deposited data

How the results depend on the processing

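The count of AP-1 and EGR genes called stayed at 0 in each direction under all 11 alternatives, and the direction of each gene's log2 fold change was kept in all but 1 case: *Junb* was at 0.0073 without unloaded replicate 2, and its values with a library left out ran from -0.22 to 0.0073. The smallest adjusted p of any of the 10 genes was 0.0328, for *Fosl2* with DESeq2. Where an alternative called no gene at all, as given below, the count of 0 members was fixed by that. It says nothing about the members there. DESeq2 called 2.91% of all genes, so 0 members is near that share too. Over all genes, the calls (2 higher and 14 lower) became 170 and 193 with DESeq2, 4 and 25 with at least 10 counts in every library, 55 and 92 at an adjusted p under 0.05, and 0 and 0 in edgeR with no filter on low counts (2435 genes at an unadjusted p under 0.05). With the replicate number as a block, edgeR called 0 genes higher and 0 lower (1839 at an unadjusted p under 0.05). Deviations of same-numbered libraries from their group means had a correlation across genes of -0.057. Some single genes, given under other observations, still kept the same order of replicates in both groups. The labels give only the replicate number, and whether same-numbered libraries share anything else was not tested. With each library left out, 0 to 19 genes were higher and 0 to 40 lower, with 0 in both directions when either loaded replicate was left out (2225 and 2086 genes at an unadjusted p under 0.05). For the other pathway genes (0 higher and 0 lower), DESeq2 gave 6 and 6, an adjusted p under 0.05 gave 5 and 3, and at least 10 counts in every library gave 1 higher gene, *Hmox1*. With each library left out, 0 to 1 were higher. The *Jun* share of the JUN family differed by -0.39 percentage points between the groups, by 0.056 with basic exon lengths and by -2.70 to 1.93 with each library left out, so its sign was not stable. The cause of these differences was not tested. Low counts limit *Fos*, *Egr1*, *Egr2* and *Egr3*, whose 95% intervals span more than 1.2 on the log2 scale.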

Other observations

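A few genes of the upstream and partner lists differed more between libraries of one group than between the group means; they were picked out after their values were seen. *Rps6ka3*, a kinase downstream of ERK, was listed at 2140 counts in unloaded replicate 1 and 4406 in unloaded replicate 2, and at 2165 in loaded replicate 1 and 4335 in loaded replicate 2. *Mapk3*, which encodes ERK1, was at 3789 and 5219 counts without and 3819 and 5206 counts with load, in the same order. *Map2k7*, a kinase of JNK, was at 1709 and 793 counts without and 1622 and 1064 counts with load. *Creb1*, a bZIP factor that binds the CRE, lay between 2559 and 2666 counts in 3 libraries and at 825 counts in loaded replicate 2.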
